A study of Mus musculus with 14 samples.

Results

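The mitochondrial ribosomal protein genes were the 78 genes whose symbol begins with *Mrpl* or *Mrps* followed by a digit, out of 19525 genes with counts. The pattern matched 82 symbols, and 4 of them were pseudogenes and were left out. Of the 78 genes, 51 encode proteins of the large subunit and 26 encode proteins of the small subunit. *Mrps36* keeps its ribosomal name, but its product is now placed in the oxoglutarate dehydrogenase complex. The rule for members used symbols and no measured value, but the set was chosen with earlier results of these data known.

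Mitochondria carry their own ribosome, which translates the few proteins encoded by mitochondrial DNA, all of them parts of the respiratory chain and the ATP synthase. Its rRNAs are transcribed from mitochondrial DNA, whereas all of its proteins are encoded in the nucleus, translated in the cytosol and imported. Some of these proteins have a counterpart in the bacterial ribosome and others were gained in the mitochondrial lineage.

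RNA was measured in spheroids of 4T1, a mouse triple-negative mammary cancer line, after 5 days in a medium that resembles the nutrients of lung interstitial fluid. Control spheroids carried a scrambled hairpin and received 700 µM aspartate (ASP shSCR, n = 4) or none (NoASP shSCR, n = 3). The knockdown spheroids all received 700 µM aspartate and were silenced for *Grin2d*, an NMDA receptor subunit (ASP shGRIN2D, n = 3), or for *Dhps*, which makes the first step of eIF5A hypusination (ASP shDHPS, n = 4). Hairpins were delivered by lentivirus and the cells were kept as drug-selected pools, so a group is a pool and not a single clone. No knockdown was grown without aspartate, and the comparisons with ASP shSCR share its 4 libraries.

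Total counts lay between 12731123 and 23231378 per library. The epithelial markers *Epcam*, *Krt8* and *Krt18* were high in all 14 libraries, with *Epcam* at 418 to 687 CPM, the counts of a gene scaled to a common library total. The markers *Dcn*, *Pecam1*, *Cdh5* and *Ptprc* stayed at or below 0.648 CPM, while *Pdgfra* lay between 22.7 and 40.7 CPM and *Cd68* between 5.51 and 16.0 CPM. Of the receptor genes behind the term triple-negative, *Erbb2* lay between 50.5 and 99.1 CPM and *Esr1* between 2.99 and 7.13 CPM. *Pgr* was not among the genes with counts. The term describes the line, and receptor protein was not measured here. *Dhps* was at 6.93 ± 1.74 CPM (SD, n = 4) in ASP shDHPS and 19.4 ± 2.28 CPM (n = 4) in ASP shSCR, a log2 fold change of -1.48 (adjusted p = 8.31e-06, edgeR). *Grin2d* was at 2.46 ± 0.590 CPM (n = 3) in ASP shGRIN2D and 3.60 ± 0.423 CPM in ASP shSCR, and this decrease did not pass the test (log2 fold change -0.55, adjusted p = 0.516, edgeR). In bulk RNA, fewer cells of a kind and less RNA per cell cannot be told apart.

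Every one of the 78 genes was well measured. Counts per library ran from 141 for *Mrpl46* in its lowest library to 3218 for *Mrpl13* in its highest. The mean level over the 14 libraries ranged from 14.4 CPM for *Mrpl46* to 137 CPM for *Mrpl13*, with a median of 39.2 CPM. The 10224 genes whose mean reached 5 CPM had a median of 42.2 CPM. The members thus lay close to it in CPM, a scale that takes no account of transcript length. In sum they took 0.271% to 0.368% of the counts of a library.

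Levels of different genes were compared after division by transcript length. On this scale the members had a median of 29.4 CPM per kb, against 15.2 CPM per kb over the 10184 genes of at least 5 CPM with a known length. The highest values belonged to *Mrps21* (130 CPM per kb), *Mrpl33* (112 CPM per kb) and *Mrpl13* (112 CPM per kb), which have the bacterial counterparts S21, L33 and L13. The lowest belonged to *Mrps25* (4.69 CPM per kb), *Mrpl19* (5.13 CPM per kb) and *Mrpl1* (5.61 CPM per kb). Members with a bacterial counterpart had a median of 35.7 CPM per kb (46 genes) and members specific to mitochondria 18.8 CPM per kb (31 genes). The large and the small subunit had medians of 30.1 and 26.8 CPM per kb. These are descriptions across genes, which are not independent replicates, and the lengths are the medians of the annotated transcripts and not those used in the cells.

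**Figure D1:**
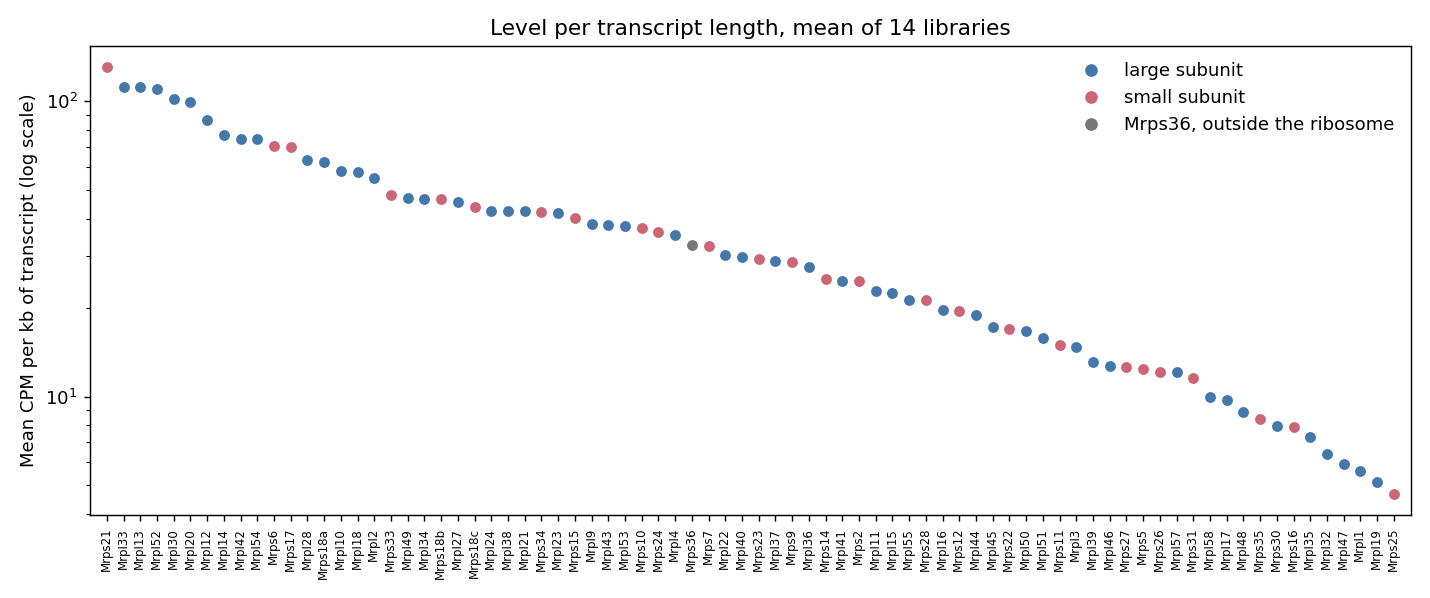
Mean level of each of the 78 genes over 14 libraries, in CPM per kb of transcript on a log axis, in falling order, with large subunit genes in blue, small subunit genes in red and *Mrps36* in grey. The points fall from 130 CPM per kb for *Mrps21* to 4.69 CPM per kb for *Mrps25*, and genes of both subunits are mixed along the whole order.

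The promoters of the members were examined for sequence that the symbol rule did not use. RefSeq promoter windows of GRCm38.p6, from 250 bases before to 50 bases after a start, were matched for 69 of the 78 genes and for 12047 other genes of the table. The windows were searched on both strands. The core of the NRF-1 site (GCATGCGC) was found in 8 member genes (11.6%) and in 5.22% of the other genes. The ETS motif (CCGGAAGT), which GABP also binds, was found in 12 members (17.4%) against 8.10%, and the YY1 motif (AAGATGGCG) in 8 members (11.6%) against 3.08%. For the E-box (CACGTG), the shares were 7.25% of members and 10.9% of other genes. The cAMP response element (CRE, TGACGTCA) was found in 2 members (2.90%) against 3.35%. A match to these letters is a description and not evidence of binding.

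The 100 bases before the annotated start are shown for 4 genes. These are *Mrpl16*, the single member called in a comparison, and *Mrpl36*, which had the next largest estimate in the same comparison. The others are *Mrpl32*, which carries the NRF-1 core at separate places, and *Mrpl9*, whose matches to it overlap in a single stretch. The sequences run 5′ to 3′ on the strand of the gene, and capitals mark the motifs above. In *Mrpl16* (chr19:11770315-11770414, plus strand) the capitals mark the CRE. In *Mrpl36* (chr13:73330909-73331008, plus strand) they mark an E-box followed by the YY1 motif on the other strand. In *Mrpl32* (chr13:14613038-14613137, minus strand) and *Mrpl9* (chr3:94443236-94443335, plus strand) they mark the NRF-1 core, whose matches on both strands overlap where the palindrome is complete.
Mrpl16: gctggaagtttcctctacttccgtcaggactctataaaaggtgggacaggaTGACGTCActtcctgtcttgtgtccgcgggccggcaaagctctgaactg
Mrpl36: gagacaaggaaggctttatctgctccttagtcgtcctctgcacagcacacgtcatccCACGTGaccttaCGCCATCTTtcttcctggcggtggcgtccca
Mrpl32: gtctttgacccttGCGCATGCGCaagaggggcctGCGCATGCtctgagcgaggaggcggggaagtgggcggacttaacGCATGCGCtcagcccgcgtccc
Mrpl9: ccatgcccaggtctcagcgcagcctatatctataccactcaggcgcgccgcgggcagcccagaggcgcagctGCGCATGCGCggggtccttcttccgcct

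In the GENCODE M21 annotation (GRCm38), 18 members (23.1%) had a protein-coding neighbour on the opposite strand whose start lay within 1000 bp upstream, against 9.74% of 14079 other protein-coding genes. Opposite-strand neighbours whose annotated start lay inside the gene were not counted, for members and other genes alike. Member transcripts were short, with a median length of 1224.5 bases against 2637.5 bases for the other genes, and their GC content was similar (50.05% against 50.86%).

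The members shifted together from library to library, also within a group. Each gene's log2 CPM was compared with its own mean over the 14 libraries. In ASP shSCR, 51, 5, 38 and 27 of the 78 genes lay above their own mean in replicates 1 to 4. In NoASP shSCR, 6, 67 and 9 genes did so in replicates 2 to 4. In ASP shGRIN2D the numbers were 32, 54 and 49, and in ASP shDHPS they were 74, 50, 70 and 31. Among genes of at least 5 CPM, 49.1% to 55.1% lay above their own mean in every library. ASP shSCR replicate 2, NoASP shSCR replicate 2 and NoASP shSCR replicate 4 were thus low for nearly all members, and ASP shDHPS replicates 1 and 3 and NoASP shSCR replicate 3 were high.

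The size of these shifts was as large within groups as between them. The median deviation over members was -0.25 on the log2 scale in ASP shSCR replicate 2 and between -0.04 and 0.05 in the other 3 ASP shSCR libraries. In NoASP shSCR it was -0.17, 0.09 and -0.21 in replicates 2, 3 and 4. In ASP shGRIN2D it was -0.03, 0.08 and 0.03 in replicates 1 to 3, the narrowest spread of the 4 groups. In ASP shDHPS it was 0.26, 0.04, 0.19 and -0.03 in replicates 1 to 4. ASP shSCR replicate 2 was the lowest of its group for 63 of the 78 genes, NoASP shSCR replicate 3 the highest of its group for 70, and ASP shDHPS replicate 4 the lowest of its group for 54.

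Both subunits followed the same pattern. In ASP shSCR replicate 2 the median deviation was -0.25 for the large and -0.27 for the small subunit. In ASP shDHPS replicate 1 it was 0.23 for the large and 0.28 for the small subunit. In NoASP shSCR replicate 4 it was -0.20 and -0.21. Members with a bacterial counterpart and members specific to mitochondria also lay close together, at 0.27 and 0.26 in ASP shDHPS replicate 1.

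Other properties of the libraries moved with these shifts. The first principal component of the genes of at least 5 CPM held 32.3% of the variance. On it, ASP shSCR replicate 2 (-25.8) and NoASP shSCR replicate 2 (-19.7) lay at one end. ASP shDHPS replicates 1 (27.6) and 3 (19.1) lay at the other, with the remaining libraries between -8.66 and 9.36. After each library was corrected for GC content and transcript length, the median deviation of the members shrank from -0.25 to -0.16 in ASP shSCR replicate 2, from -0.21 to -0.05 in NoASP shSCR replicate 4 and from 0.26 to 0.11 in ASP shDHPS replicate 1. The 87 cytosolic ribosomal protein genes, also short transcripts, had median deviations of -0.10, -0.32 and 0.19 in these same libraries, and 0.21 in ASP shSCR replicate 1. The part of any of these in the results for the members was not tested.

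**Figure D2:**
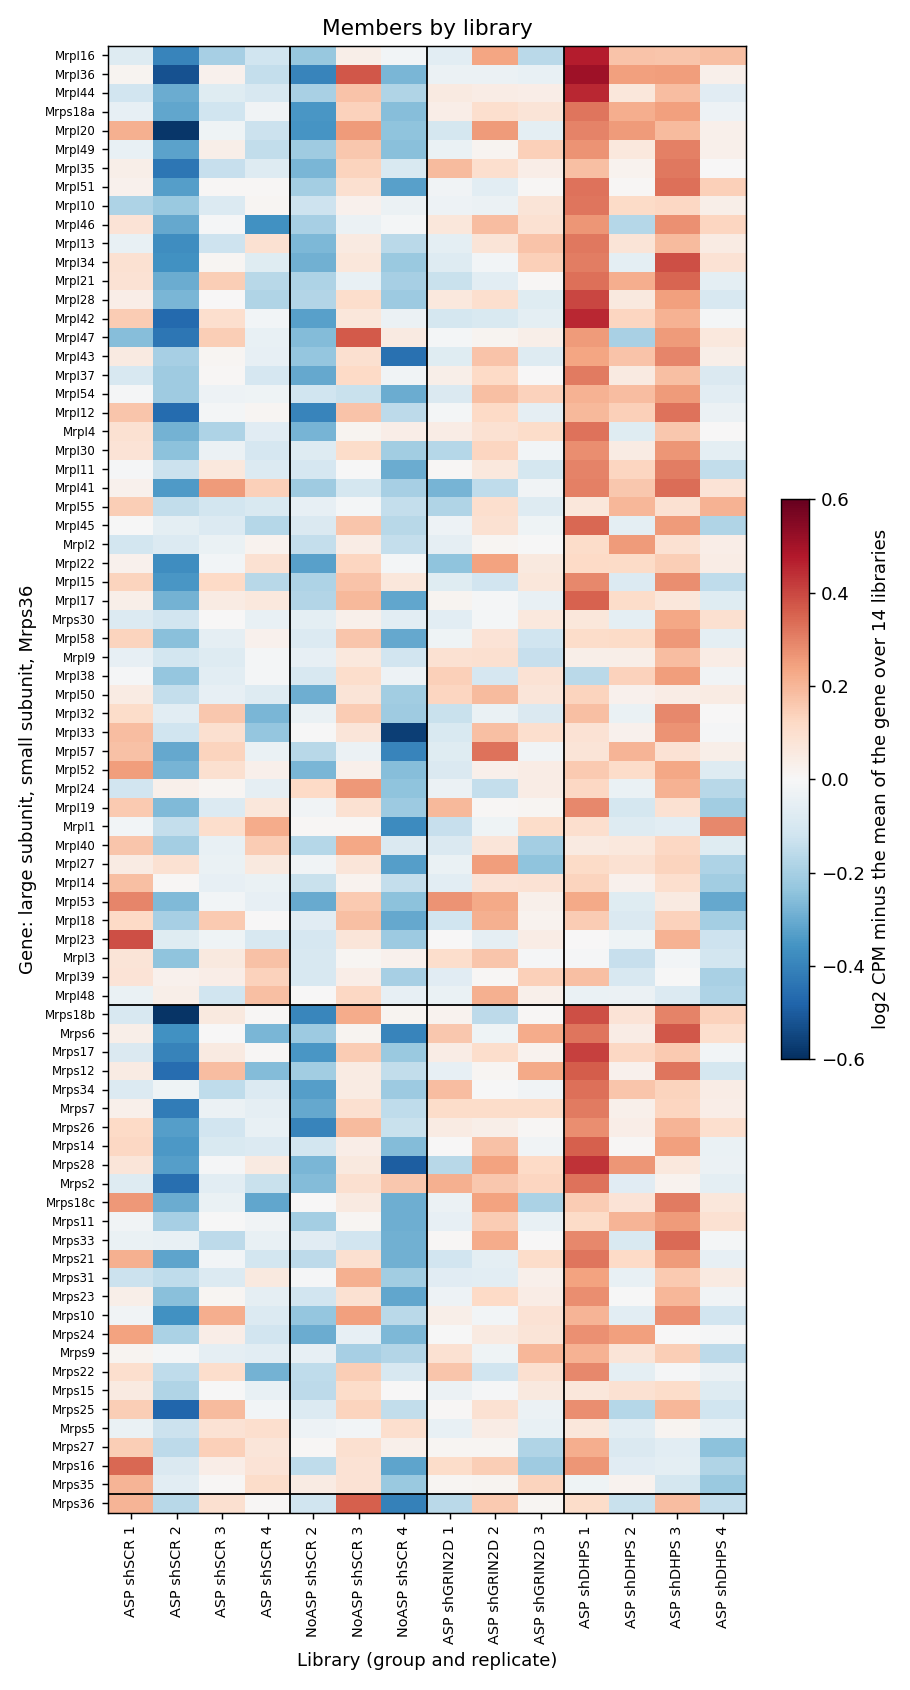
Log2 CPM of each of the 78 genes (rows, large subunit above, small subunit below, *Mrps36* last, each ordered by the fitted change in ASP shDHPS against ASP shSCR) minus the mean of that gene over 14 libraries (columns, by group and replicate), red for higher and blue for lower. The columns of ASP shSCR replicate 2 (5 of 78 genes above their mean) and ASP shDHPS replicate 1 (74 of 78) are nearly uniform in colour.

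The summed level of the members overlapped between all groups. It was 3289, 2664, 3167 and 3084 CPM in ASP shSCR replicates 1 to 4 (3051 ± 271, SD, n = 4). In NoASP shSCR replicates 2 to 4 it was 2803, 3382 and 2800 CPM (2995 ± 335, n = 3). In ASP shGRIN2D it was 3154, 3325 and 3231 CPM (3237 ± 85.8, n = 3), and in ASP shDHPS 3737, 3296, 3625 and 3105 CPM (3441 ± 292, n = 4). In ASP shDHPS, replicates 1, 2 and 3 exceeded the highest ASP shSCR library and replicate 4 did not.

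**Figure D3:**
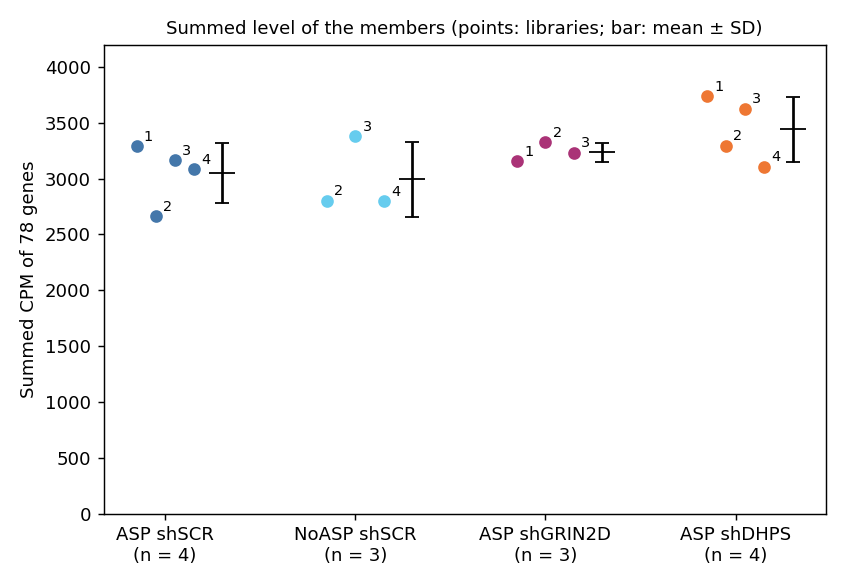
Summed CPM of the 78 genes in each library (points, labelled with the replicate number) by group, with mean ± SD (bars beside the points), on an axis that starts at 0. ASP shDHPS lies at 3441 ± 292 and ASP shSCR at 3051 ± 271, and the libraries of all 4 groups overlap.

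Aspartate left no member past the test. The first comparison asked whether control spheroids differed with and without aspartate (ASP shSCR against NoASP shSCR). With edgeR, 0 of 78 members passed an adjusted p of 0.05 in either direction and 0 had an unadjusted p under 0.05, and DESeq2 gave 0 as well. Over all genes 0% were called higher and 0% lower, 0.901% were higher at an unadjusted p under 0.05, and 1.19% were higher without overlap between the groups, against 0 members. The fitted log2 fold change was above 0 for 50 members, and their median was 0.02, against 0.003 over genes of at least 5 CPM. Same-numbered libraries of these groups deviated together, and with the replicate block in edgeR 1 gene was called higher and 1 lower over all genes, 0 of them members, with 41 members above 0 and a median of 0.003. With the block in a fit of the 7 shSCR libraries alone, 40 genes were called higher and 24 lower, again 0 of them members, with 35 members above 0 and a median of -0.02. In both blocked fits 0 members were higher and 1 lower at an unadjusted p under 0.05.

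The largest estimates with aspartate belonged to *Mrps16* (0.22), *Mrpl41* (0.21) and *Mrps24* (0.21), and the lowest to *Mrpl47* (-0.21), *Mrps2* (-0.18) and *Mrpl16* (-0.13), all with an adjusted p of 1 (edgeR). *Mrps16*, the counterpart of bacterial S16, was at 25.7, 19.0, 20.8 and 21.4 CPM in ASP shSCR and at 18.1, 21.4 and 16.2 CPM in NoASP shSCR, so the groups overlapped. *Mrpl47*, the counterpart of bacterial L29, was at 16.4, 14.5, 21.8 and 19.0 CPM with aspartate and at 16.4, 25.3 and 20.4 CPM without. The standard error of a member's log2 fold change lay between 0.09 and 0.16 in this comparison, and none of these estimates was past the test. The median over members was below 0 without ASP shSCR replicate 1 (-0.02), NoASP shSCR replicate 2 (-0.01) or NoASP shSCR replicate 4 (-0.02) and after the correction for GC content and length (-0.01), and it was 0.13 without NoASP shSCR replicate 3 and 0.09 without ASP shSCR replicate 2. Without ASP shSCR replicate 2, 4 members were higher at an unadjusted p under 0.05, against 1.18% of all genes. Without NoASP shSCR replicate 3, 4 were also higher (1.39% of all genes), and without NoASP shSCR replicate 2, 2 were lower.

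*Grin2d* knockdown also left no member past the test, while the estimates were mostly above 0. In ASP shGRIN2D against ASP shSCR, 0 of 78 members were called, where 0.425% of all genes were called higher and 0.732% lower. At an unadjusted p under 0.05, 2 members were higher and 0 lower (2.56% of members, against 4.66% of all genes higher), and DESeq2 called 0 members. The groups did not overlap, with the knockdown higher, for 8 members (10.3%), against 5.64% of all genes and 7.65% of genes of at least 5 CPM. The estimate was above 0 for 61 members, with a median of 0.08 against 0.006 over genes of at least 5 CPM. Without ASP shSCR replicate 2 the median was 0.01 and 45 members lay above 0, and without ASP shGRIN2D replicate 2 the median was 0.05. At an unadjusted p under 0.05, 6 members were higher without ASP shSCR replicate 1 (4.21% of all genes). Only 1 was higher without ASP shSCR replicate 2 (4.14% of all genes), ASP shGRIN2D replicate 1 (3.65%) or ASP shGRIN2D replicate 3 (3.70%).

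*Mrps2*, the counterpart of bacterial S2, had the largest estimate. It was at 58.8, 56.6 and 55.4 CPM in ASP shGRIN2D and at 48.1, 37.0, 48.5 and 46.2 CPM in ASP shSCR. All 3 knockdown libraries thus lay above all 4 controls, with a log2 fold change of 0.34 ± 0.12 (SE) that did not pass the test (adjusted p = 0.251, edgeR). *Mrps6* (0.26, adjusted p = 0.447) and *Mrpl35* (0.26, adjusted p = 0.481) followed. The lowest estimates were those of *Mrpl41* (-0.19), *Mrps27* (-0.11) and *Mrpl40* (-0.09), which are specific to mitochondria.

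*Dhps* knockdown gave 1 member past the test. *Mrpl16*, the counterpart of bacterial L16, which sits in the large subunit close to the tRNA sites, was at 31.3, 25.4, 25.4 and 25.6 CPM in ASP shDHPS and at 21.4, 17.2, 19.7 and 20.8 CPM in ASP shSCR. All 4 knockdown libraries lay above all 4 controls. The means were 26.9 ± 2.91 and 19.8 ± 1.89 CPM (SD, n = 4 each), a 1.36-fold increase (log2 fold change 0.45 ± 0.11 SE, adjusted p = 0.0280, edgeR). In the other groups *Mrpl16* was at 19.3, 23.2 and 22.4 CPM (NoASP shSCR) and at 21.6, 26.6 and 20.2 CPM (ASP shGRIN2D), and ASP shGRIN2D replicate 2 lay within the range of ASP shDHPS. The call was lost without ASP shDHPS replicate 1 (log2 fold change 0.37, adjusted p = 0.0845), without ASP shSCR replicate 2 (0.38, adjusted p = 0.101) and without ASP shSCR replicate 3 (0.45, adjusted p = 0.0532). It was also lost without both shSCR replicate 2 libraries (0.39, adjusted p = 0.0704) and without these and ASP shDHPS replicate 1 (0.30, adjusted p = 0.133), and the estimate stayed between 0.30 and 0.49 under all 18 alternatives.

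One call among 78 (0 lower) stands beside 1.65% of all genes called higher and 2.57% called lower in the same comparison, and is thus no more than the background. At an unadjusted p under 0.05, 27 members (34.6%) were higher and 0 lower, against 9% of all genes higher and 13.1% of genes of at least 5 CPM. The groups did not overlap, with the knockdown higher, for 11 members (14.1%), against 5.25% of all genes and 7.88% of genes of at least 5 CPM. The estimate was above 0 for 66 of 78 members, with a median of 0.19 against -0.004 over genes of at least 5 CPM. The SD between replicate libraries in the median level of the members was 0.13. With the replicate number as a block, 11 members (14.1%) were called higher, against 4.57% of all genes. In that blocked fit 37 were higher at an unadjusted p under 0.05, against 10.6% of all genes. The libraries of this comparison were not counted as paired, so the fit without a block is the one described here.

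These counts depended on few libraries. The number of members higher at an unadjusted p under 0.05 fell from 27 to 7 without ASP shSCR replicate 2 (6.45% of all genes), to 12 without ASP shDHPS replicate 1 (8.61% of all genes), to 12 without ASP shDHPS replicate 3 (7.16%) and to 16 without ASP shSCR replicate 4 (7.60%). It rose to 36 without ASP shDHPS replicate 4 (8.87% of all genes) and to 31 without ASP shSCR replicate 1 (8.69%). It was 14 after the correction for GC content and length (10.4% of all genes), with a median of 0.12. Without both shSCR replicate 2 libraries and ASP shDHPS replicate 1, it was 5 higher (7.91% of all genes) and 4 lower, with 0 called and a median of 0.08.

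Members of both subunits were among them. Of the 51 large subunit genes 18 were higher at an unadjusted p under 0.05, with a median estimate of 0.18, and of the 26 small subunit genes 9 were, with a median of 0.21. By origin, 16 of 46 members with a bacterial counterpart and 11 of 31 specific to mitochondria were higher at that threshold. *Mrps36*, which is not part of the ribosome, had an estimate of -0.03 ± 0.14 (SE) and was at 22.1, 18.7, 23.3 and 18.5 CPM in ASP shDHPS and 23.6, 18.3, 21.9 and 20.6 CPM in ASP shSCR.

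After *Mrpl16*, the largest estimates were those of *Mrpl36* and *Mrps18b*. *Mrpl36*, the counterpart of the small bacterial protein L36, was at 27.5, 22.9, 23.0 and 19.8 CPM in ASP shDHPS and at 19.6, 13.5, 19.7 and 17.5 CPM in ASP shSCR (log2 fold change 0.40 ± 0.15 SE, adjusted p = 0.140, edgeR). The lowest knockdown library lay just above the highest control, while NoASP shSCR replicate 3 reached 25.01 CPM. *Mrps18b*, 1 of the mitochondrial relatives of bacterial S18, was at 56.5, 45.7, 53.1 and 47.5 CPM in the knockdown and at 40.5, 28.7, 44.99 and 43.4 CPM in ASP shSCR (0.37 ± 0.13 SE, adjusted p = 0.129, edgeR). Its groups did not overlap either, and ASP shSCR replicate 2 was the lowest library for both genes.

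*Mrps6*, the counterpart of bacterial S6 and the partner of S18 in the platform of the small subunit, came closest to the threshold after *Mrpl16*. It was at 73.7, 61.0, 76.5 and 63.4 CPM in ASP shDHPS and at 60.5, 45.8, 59.1 and 48.9 CPM in ASP shSCR (0.36 ± 0.11 SE, adjusted p = 0.0753, edgeR). Its lowest knockdown library exceeded the highest control by less than 1 CPM. In ASP shGRIN2D it was at 66.1, 57.9 and 68.8 CPM, a range that met both other groups.

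The proteins with distinct roles gave no call. *Mrpl12*, which forms the stalk that recruits translation factors and also contacts the mitochondrial RNA polymerase, was at 129, 124, 141 and 110 CPM in ASP shDHPS and at 126, 81.7, 112 and 113 CPM in ASP shSCR (0.22, adjusted p = 0.343, edgeR). *Mrpl45*, which links the ribosome to the inner membrane, had an estimate of 0.18 (adjusted p = 0.374), *Mrps12* of the decoding centre 0.26 (adjusted p = 0.328) and *Mrpl58*, a peptidyl-tRNA hydrolase built into the large subunit, 0.14 (adjusted p = 0.531). The lowest estimates were those of *Mrps35* (-0.15), *Mrps16* (-0.11) and *Mrpl48* (-0.10), with adjusted p of 0.420, 0.693 and 0.659.

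**Figure D4:**
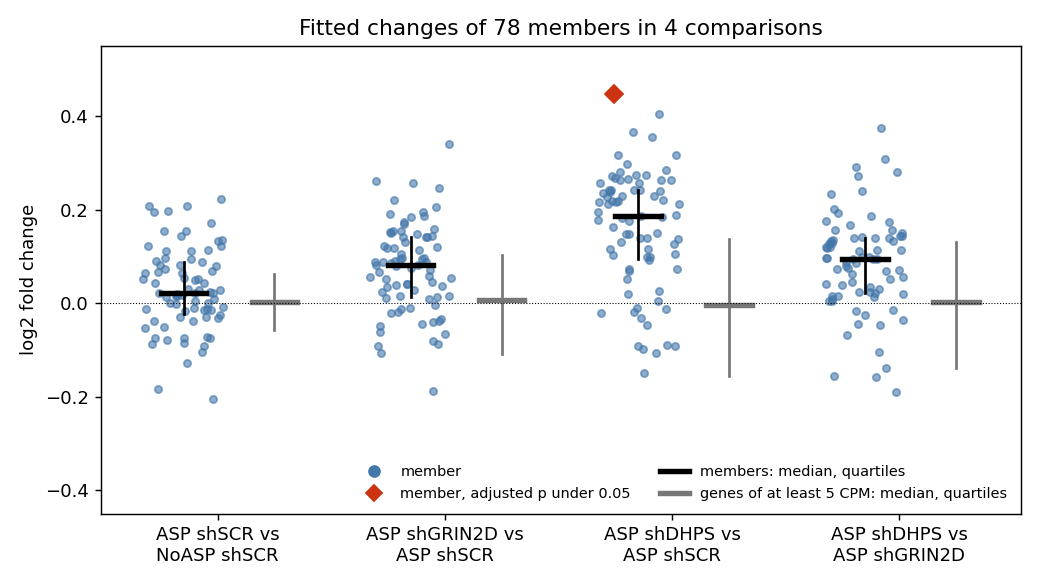
Fitted log2 fold change of each of the 78 genes (points, the gene with an adjusted p under 0.05 as a red diamond) in 4 comparisons, with median and quartiles of the members (black) and of genes of at least 5 CPM (grey). The median of the members is 0.02 for aspartate, 0.08 for *Grin2d* knockdown, 0.19 for *Dhps* knockdown and 0.09 between the knockdowns.

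Set directly against each other, the knockdowns gave no call among the members. In ASP shDHPS against ASP shGRIN2D, 0 of 78 members passed the test, where 1.2% of all genes were called higher and 1.62% lower, and DESeq2 also called 0 members. At an unadjusted p under 0.05, 3 members were higher and 0 lower (3.85%, against 7.05% of all genes higher). The groups did not overlap, with ASP shDHPS higher, for 7 members (8.97%), against 7.61% of all genes. Among genes of at least 5 CPM this share was 11.2%, so both shares of the members were near or below the background. The estimate was above 0 for 66 members, with a median of 0.09. The median was 0.04 without ASP shDHPS replicate 1, 0.05 without ASP shDHPS replicate 3 and 0.04 after the correction for GC content and length. At an unadjusted p under 0.05, 0 members were higher without ASP shGRIN2D replicate 1 (4.96% of all genes). There was 1 without ASP shDHPS replicate 1 (6.80% of all genes) or replicate 3 (6.01%). There were 2 without ASP shGRIN2D replicate 2 (6.14%) or replicate 3 (5.29%), and 5 without ASP shDHPS replicate 4 (7.26%).

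*Mrpl41*, a large subunit protein specific to mitochondria, had the largest estimate between the knockdowns. It was at 23.4, 21.2, 23.9 and 20.1 CPM in ASP shDHPS and at 15.6, 17.0 and 18.7 CPM in ASP shGRIN2D, without overlap (log2 fold change 0.37 ± 0.13 SE, adjusted p = 0.144, edgeR). In ASP shSCR it was at 19.3, 14.98, 22.6 and 20.9 CPM, a range that met both. *Mrpl36* (0.31, adjusted p = 0.391) and *Mrpl42* (0.29, adjusted p = 0.315) followed, and *Mrpl53* (-0.19), *Mrpl3* (-0.16) and *Mrpl48* (-0.16) had the lowest estimates.

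The rRNAs of the mitochondrial ribosome were higher after *Grin2d* knockdown. *mt-Rnr1*, the 12S rRNA of the small subunit, was at 508, 523 and 303 CPM in ASP shGRIN2D and at 200, 136, 113 and 219 CPM in ASP shSCR. The lowest knockdown library lay above the highest of all 11 other libraries, which was 255 CPM in NoASP shSCR replicate 3. The log2 fold change was 1.42 ± 0.24 (SE, adjusted p = 0.0022, edgeR). *mt-Rnr2*, the 16S rRNA of the large subunit, was at 1550, 1290 and 1115 CPM in ASP shGRIN2D and at 859, 630, 752 and 893 CPM in ASP shSCR, again without overlap (0.75 ± 0.13 SE, adjusted p = 0.0030, edgeR).

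In ASP shDHPS both rRNAs were lower than in ASP shGRIN2D, with *mt-Rnr1* at 204, 225, 181 and 180 CPM (log2 fold change -1.17, adjusted p = 0.0068, edgeR) and *mt-Rnr2* at 914, 943, 858 and 1008 CPM (-0.50, adjusted p = 0.0379). The *mt-Rnr1* call in the *Grin2d* knockdown held under 17 of 18 alternatives and was lost with a robust prior (adjusted p = 0.0938). The *mt-Rnr2* call held under 17 of 18 and was lost without ASP shGRIN2D replicate 1 (adjusted p = 0.0566). Against ASP shDHPS, the *mt-Rnr1* call was lost with a robust prior and without ASP shGRIN2D replicate 1 or 2, and the *mt-Rnr2* call without ASP shGRIN2D replicate 1 or 2 or ASP shDHPS replicate 1, 2 or 3. The libraries were made from poly(A)-selected RNA of a cytosolic lysate, and how much mitochondrial rRNA passes these steps was not measured. The mitochondrially encoded protein genes gave no call in any comparison, and mitochondrial tRNA genes were not in the list examined. Of the 15 listed genes, rRNAs included, 14 had an estimate above 0 in the *Grin2d* knockdown, with a median of 0.22. At an unadjusted p under 0.05, 6 (40%) were higher, against 4.66% of all genes. All mitochondrially encoded genes with counts held 4.53% to 6.23% of the counts over the 14 libraries.

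**Figure D5:**
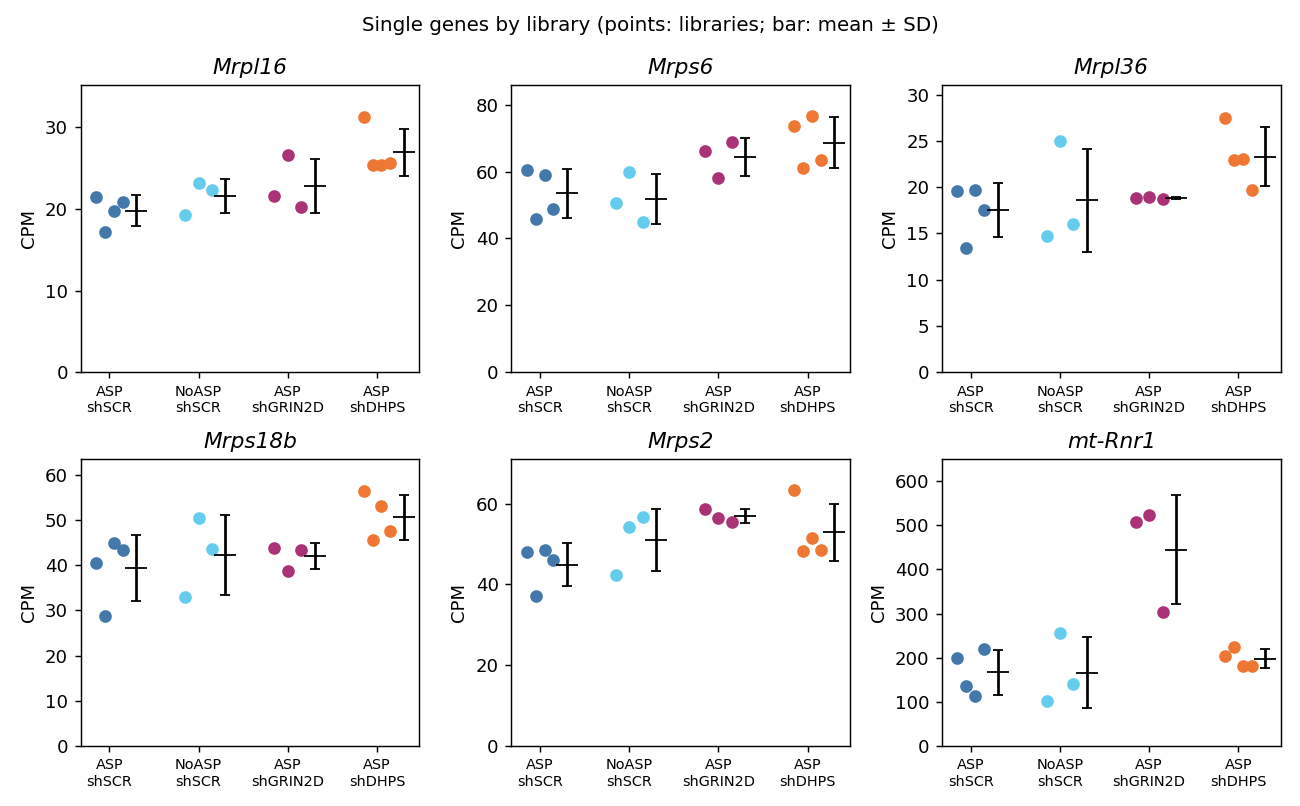
CPM of 6 genes in each library (points) by group, with mean ± SD (bars), each panel on its own axis from 0. *Mrpl16* lies between 25.4 and 31.3 CPM in ASP shDHPS and between 17.2 and 21.4 CPM in ASP shSCR, *Mrps6*, *Mrpl36* and *Mrps18b* show smaller gaps, *Mrps2* is highest on average in ASP shGRIN2D, and *mt-Rnr1* lies between 303 and 523 CPM in ASP shGRIN2D.

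The factors that build and serve the mitochondrial ribosome gave few calls. Of 29 assembly factors, 1 was called, in the *Dhps* knockdown, where 1.65% of all genes were called higher. *Mpv17l2*, an inner membrane protein known to act in ribosome assembly, was at 30.6, 32.0, 36.4 and 35.1 CPM in ASP shDHPS and at 26.1, 23.7, 24.6 and 26.3 CPM in ASP shSCR, without overlap (log2 fold change 0.42 ± 0.10 SE, adjusted p = 0.0209, edgeR). This call was lost without ASP shDHPS replicate 3 (adjusted p = 0.0796) and without ASP shSCR replicate 2 (adjusted p = 0.0663). Of the assembly factors, 22 had an estimate above 0 in this comparison, with a median of 0.13. At an unadjusted p under 0.05, 7 were higher (24.1%) and 0 lower, against 9% of all genes higher and 13.1% of genes of at least 5 CPM. The groups did not overlap, with the knockdown higher, for 5 (17.2%), against 5.25% of all genes and 7.88% of genes of at least 5 CPM. The 5 mitoribosomal proteins whose symbols lie outside the pattern (*Dap3*, *Ptcd3*, *Chchd1*, *Aurkaip1* and *Gadd45gip1*) gave no call in any comparison, and their median was 0.07 in the *Dhps* knockdown.

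With edgeR, no call was made among 17 translation factors, 7 genes of mitochondrial transcription and 20 mitochondrial tRNA synthetases and their partners. Their median estimates in the *Dhps* knockdown were 0.09, 0.15 and 0.07. At an unadjusted p under 0.05, 0, 1 and 3 of them were higher there (0%, 14.3% and 15%), against 9% of all genes. The 87 cytosolic ribosomal protein genes gave no call either. Their median estimate was 0.07 in the *Dhps* knockdown, where 7 (8.05%) were higher at an unadjusted p under 0.05. It was 0.02 in the *Grin2d* knockdown and 0.14 with aspartate, where 85 of 87 (97.7%) were above 0, against 50.2% of all genes. At an unadjusted p under 0.05, 2 (2.30%) were higher with aspartate, against 0.901% of all genes. Their median deviation was -0.32 in NoASP shSCR replicate 4 and 0.21 in ASP shSCR replicate 1. In the other libraries of this comparison it lay between -0.10 and 0.003.

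Among 12 regulators of mitochondrial gene expression and stress, 1 (*Ddit3*) was called in the *Dhps* knockdown, where 1.65% of all genes were called higher. At an unadjusted p under 0.05, 3 (25%) were higher and 1 lower there, against 9% of all genes higher. Between the knockdowns 1 was also called, where 1.2% of all genes were called higher. There 3 (25%) were higher at an unadjusted p under 0.05, against 7.05% of all genes. *Ddit3* encodes CHOP, a transcription factor of the stress response, and was at 22.2, 21.9, 29.2 and 21.4 CPM in ASP shDHPS and at 9.14, 21.7, 13.1 and 11.9 CPM in ASP shSCR (log2 fold change 0.76 ± 0.19 SE, adjusted p = 0.0217, edgeR). The groups overlapped through ASP shSCR replicate 2. The call was lost without ASP shDHPS replicate 3 (adjusted p = 0.0971), without ASP shSCR replicate 1 (0.0634), without ASP shSCR replicate 4 (0.0690) and with the GC and length correction (0.0556). Against ASP shGRIN2D, where *Ddit3* was at 12.6, 13.9 and 14.9 CPM, it was higher in ASP shDHPS by 0.78 (adjusted p = 0.0402), and this call was lost under 9 of 17 alternatives, among them leaving out any 1 of the ASP shGRIN2D libraries or any of ASP shDHPS replicates 1 to 3. *Myc* (0.42, adjusted p = 0.0843) and *Gabpa* (-0.29, adjusted p = 0.0834) did not pass the test in the *Dhps* knockdown.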

How the data were processed

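mRNA was sequenced from the cytosolic lysate of 14 samples of 4T1 spheroids, the input of polysome profiling, prepared as poly(A)-selected stranded libraries. Per the labels and the study's methods, the authors trimmed reads with Trim Galore 0.6.6, mapped them to GRCm39 with STAR 2.6.1, and deposited Salmon 1.4.0 estimated counts per gene, rounded to whole numbers, after dropping those not expressed in 2 or more replicates of any condition. Salmon shares reads among near-identical copies by estimation, so counts of genes with processed pseudogenes are less certain. The deposited differential expression and gene set tables hold the authors' own comparisons and were not used.

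Counts were tested with edgeR 4.0.16 (R 4.3.3): TMM scaling (factors 0.984 to 1.02), a quasi-likelihood fit of all 14 libraries with group as the term, and Benjamini-Hochberg adjustment across the 19525 genes, with calls made at adjusted p under 0.05. CPM values are TMM-scaled, and log2 CPM used a prior count of 2. Groups and replicate numbers came from the sample descriptions. The study describes the replicates as separate spheroid pellets, 4 per condition, while NoASP shSCR and ASP shGRIN2D hold 3 libraries here. Total counts were 12731123 to 23231378 per library, with 141 to 3218 counts per member and library. Alternatives were DESeq2 1.42.0, RLE or no further scaling, edgeR's low-count filter (13421 genes), a robust prior, fits of 2 groups, the replicate number as a block, a GC and length correction (lengths known for 97.0% of genes), omission of 1755 genes with TCATGAA, a match to a hairpin seed, in the 3′ UTR, and omission of each library. Fits without both shSCR replicate 2 libraries, without these and ASP shDHPS replicate 1, and with a block in the 7 shSCR libraries were added after the data were seen.

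The members, lists and motifs were chosen with earlier results of these data known. Named were, per comparison, called members and the 3 largest and 3 smallest estimates, the 3 highest and lowest per kb, 5 by role, called genes of the lists, and the silenced genes. *Mrpl10*, *Mrpl21*, *Mrpl32*, *Mrpl9*, *Mrpl46*, *Myc* and *Gabpa* were named after their values were seen, and *Mrps6* in the *Dhps* knockdown likewise. Same-numbered libraries deviated together for ASP shSCR and NoASP shSCR (r = 0.514, 0.287 and 0.203 across genes), above the minimum of 0.1 asked of every pair. In the *Dhps* comparison r was 0.258, 0.195, 0.201 and 0.0404, so 3 of 4 pairs passed it and the libraries were not counted as paired. In the other comparisons r lay between -0.117 and 0.231, with 1 pair of 6 above 0.1. Lengths, neighbours and promoters came from GENCODE M21 and RefSeq on GRCm38, and no coordinate was carried to GRCm39.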

Additional observations from a re-analysis of the deposited data

Results flagged for a closer look

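In ASP shSCR and ASP shDHPS, the groups of 4 libraries, each of the 78 members and their summed level was examined for a highest or lowest library whose gap to the nearest other, divided by the range of the group, exceeded the critical value of Dixon's test. This held for 10 of 158 groups, where chance gives about 1 in 20. *Mrpl16* was highest in ASP shDHPS replicate 1, at 31.3 CPM against 25.4 to 25.6 CPM in the other 3 libraries, and the values without this library are given with the comparison. *Mrps22* was also high in that library, at 24.6 CPM against 19.32 to 20.04 CPM.

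ASP shSCR replicate 2 was the lowest library for *Mrpl17* (33.2 CPM, others 41.4 to 42.2), *Mrpl51* (42.5 CPM, others 53.7 to 54.4), *Mrpl54* (38.5 CPM, others 43.8 to 44.5) and *Mrps11* (13.7 CPM, others 15.5 to 15.7). *Mrps33* was lowest in ASP shSCR replicate 3 (30.7 CPM, others 33.2 to 33.3) and *Mrpl27* in ASP shDHPS replicate 4 (30.2 CPM, others 36.6 to 37.8). *Mrpl23* was highest in ASP shSCR replicate 1 (37.7 CPM, others 26.9 to 28.3) and *Mrpl9* in ASP shDHPS replicate 3 (71.3 CPM, others 64.3 to 64.8).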

How the results depend on the processing

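No member was called for aspartate under any of 18 alternatives, including the replicate block, which is the paired analysis. For the *Grin2d* knockdown, 0 members were called without the block and 1 (*Mrps2*) with the replicate block (1.28% of members, against 1.19% of all genes called higher). For the comparison of the knockdowns, 0 were called without it and 1 (*Mrpl21*) with the replicate block (1.28%, against 3.00% of all genes). For the *Dhps* knockdown, 1 member was called, and 11 with the replicate block (14.1% of members, against 4.57% of all genes called higher), 3 with DESeq2 (*Mrpl10*, *Mrpl16* and *Mrps6*, 3.85% of members against 2.90% of all genes), 0 without both shSCR replicate 2 libraries, and 0 to 1 when 1 library was left out. At an unadjusted p under 0.05, 37 members were higher with the block (10.6% of all genes), against 27 without (9% of all genes). The labels leave the meaning of the replicate numbers unstated. For *Dhps* all 4 same-number correlations were above 0 and 3 were above 0.1. Of 8 libraries in the *Dhps* comparison, 5 correlated best with their own number, as did 1 of 6 for *Grin2d* and 2 of 6 between the knockdowns. The median estimate of the members ranged from -0.02 to 0.13 for aspartate, from 0.01 to 0.11 for *Grin2d*, from 0.08 to 0.23 for *Dhps* and from 0.04 to 0.13 between the knockdowns. The mean summed level of each group moved by less than its SD under other scalings and without any 1 library. The standard errors of single members were 0.08 to 0.16, with 3 or 4 libraries a group, and their spread within groups was a median SD of 0.162 on the log2 scale.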
